A study of Mus musculus with 8 samples.

Results

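Mouse cells defend themselves against oxidants and reactive chemicals with a set of enzymes, transporters and binding proteins that is controlled, in large part, by the transcription factor NRF2. The expression of 40 genes of this defence was followed in mouse embryonic fibroblasts (MEFs). They were listed by symbol for their known function, and 34 of the 40 gave a usable signal among the 10214 features tested on the arrays. The 34 comprised 3 regulators of NRF2, 7 genes of glutathione synthesis and use, 4 of the thioredoxin system, 3 that remove superoxide and hydrogen peroxide, 3 that supply NADPH, 5 of metal and heme handling, and 9 of conjugation and carbonyl reduction. Of the 6 others, Gsr, Prdx6, G6pdx and Pgd had no probe named for them in the platform annotation. Gclc had a probe that was detected on 0 of the 8 arrays and Ftl1 one that was detected on 1.

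The study asked what happens when the transcription factor E2F3 escapes the retinoblastoma protein (Rb). The cells came from C57BL/6 embryos of embryonic day 13.5, which were WT or carried the knock-in mutation L430Q in E2F3 (E2F3LQ), which impairs the binding of Rb. The knock-in MEFs were homozygous, and the neomycin cassette of the targeted allele had been removed by crossing with Mox2Cre mice. Each genotype was represented by 2 clones, WT clones 1 and 16 and E2F3LQ clones 2 and 4, and RNA of each was hybridised to an Illumina bead array once from proliferating cells in medium with 10% FBS and once after starvation, which the sample labels give as 72 h in medium without FBS. For another assay the study's methods describe starvation in medium with a little serum. The 4 groups, WT proliferating, E2F3LQ proliferating, WT starved and E2F3LQ starved, therefore had 2 arrays each. A p-value here measures only the spread between these clones.

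All values below are log2 signals after background correction and quantile normalization, read from the brightest detected probe of each gene. Of the 34 genes, 33 were detected on all 8 arrays, and Txnrd1 was detected on 2, so it is counted with the others but not described further. Differences were tested with limma across the 10214 features, and a gene was called when its Benjamini-Hochberg adjusted p-value was under 0.05. Between 12141 and 12420 probes were detected per array. The proliferating array of E2F3LQ clone 2 stood apart, with 685 features (6.71%) that departed over 2-fold from the average of the remaining 3 proliferating arrays, where those had 103 to 223. The main changes that rest on this array are also given without it. Of 10 fibroblast markers 9 were measured, all of them on every array. Whether the E2f3 probe covers the base change was not checked. Its signal was 7.06 and 6.97 in WT clones 1 and 16 and 6.74 and 6.60 in E2F3LQ clones 2 and 4 while proliferating, a difference of -0.35 that was not called (adjusted p = 0.999).

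In unstressed cells the adaptor KEAP1 holds NRF2 and hands it to a ubiquitin ligase, so that NRF2 is degraded. Oxidants and electrophiles modify cysteines of KEAP1, NRF2 accumulates, pairs with a small MAF protein and binds antioxidant response elements in its target genes. The targets make and recycle glutathione and thioredoxin, supply NADPH for both, bind iron and other metals, degrade heme, and reduce or conjugate reactive compounds. Some of the genes here answer to other factors as well, such as the metallothioneins to the metal-sensing factor MTF1.

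To show what such an element looks like in these genes, the core TGACNNNGC was searched on both strands in the 250 bases before each RefSeq start (GRCm38.p6). Promoter entries were found for 34 of the 40 genes, all but Hmox1, Gclc, Gsta4, Gsr, Prdx6 and Sod3. The core occurred in 3338 of all 32851 promoters in the table (10.2%) and in 7 of the 45 windows of these genes (15.6%), those of G6pdx, Gclm, Mt2, Nfe2l2, Prdx1, Sod1 and Txnrd1. The sites of the 6 genes that had a probe passing the filter are printed below in the direction of the motif, with the core in capitals and 10 bases on each side in lower case.
Gclm (chr3:122245413-122245441, minus strand): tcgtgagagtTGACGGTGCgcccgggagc
Mt2 (chr8:94172529-94172557, plus strand): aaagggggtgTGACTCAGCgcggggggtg
Nfe2l2 (chr2:75704885-75704913, minus strand): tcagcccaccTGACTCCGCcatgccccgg
Prdx1 (chr4:116685456-116685484, minus strand): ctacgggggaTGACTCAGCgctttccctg
Sod1 (chr16:90220696-90220724, minus strand): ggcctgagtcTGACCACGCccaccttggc
Txnrd1 (chr10:82859104-82859132, minus strand): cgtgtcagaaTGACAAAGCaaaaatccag
The sites of Mt2 and Prdx1 share the core TGACTCAGC. A match in a window is a description of its letters and not a measured binding site, and elements farther away were not searched.

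**Figure D1:**
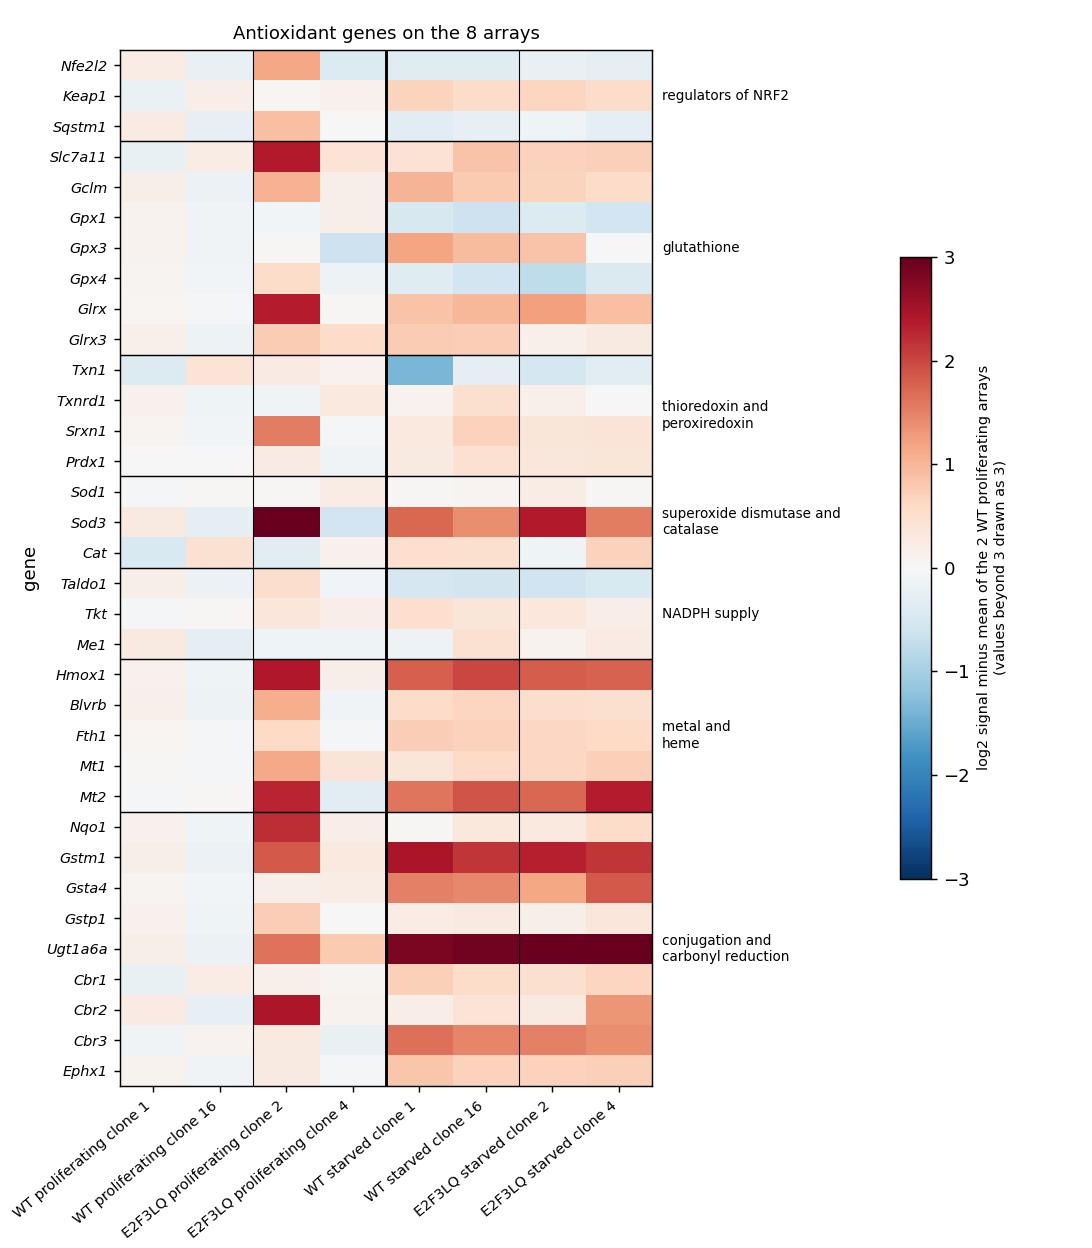
Heat map of the log2 signal of the 34 measured genes (rows, grouped by function) on the 8 arrays (columns), relative to the mean of both WT proliferating arrays, with red higher and blue lower. The starved arrays are red for Ugt1a6a, Gstm1, Gsta4 and Cbr3, and the array of proliferating E2F3LQ clone 2 lies more than 1 above that mean for 14 genes.

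The first comparison asked how the defence changed when serum was withdrawn, averaged over both genotypes. Of the 34 genes, 9 rose in starved cells (Ugt1a6a, Cbr3, Gsta4, Ephx1, Gstm1, Keap1, Cbr1, Gpx3 and Fth1) and 3 fell (Gpx1, Taldo1 and Gpx4), and 22 were not called. Over all features, 1116 (10.9%) were called higher and 1172 (11.5%) lower. The median change of the 34 genes was 0.27 on the log2 scale, with 25 above 0, and that of all features was 0.0011. Among the genes of conjugation and carbonyl reduction 6 of 9 rose and 0 fell, and among all the others 3 rose and 3 fell. With median scaling in place of quantile normalization, 538 features were called higher and 1479 lower, so that higher calls made up 26.7% of all calls instead of 48.8%, and 6 genes rose and 4 fell. The median of all features then lay at -0.13 and that of the 34 genes at 0.18. Less signal from a gene cannot be told apart from fewer cells of the type that expresses it.

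Ugt1a6a, a UDP-glucuronosyltransferase that couples phenols to glucuronic acid, showed the largest rise among the 34. Its log2 signal was 5.56 and 5.23 in WT clones 1 and 16 and 7.02 and 6.17 in E2F3LQ clones 2 and 4 while proliferating, and 8.22, 8.29, 8.36 and 8.65 in the same order after starvation. All 4 starved arrays lay above all 4 proliferating arrays. The change was 2.39 ± 0.20 (SE, 4 arrays against 4, adjusted p = 0.000991, limma). Its 2 dimmer probes gave 1.55 and 0.92. The Ugt1a genes share their last exons, so the probes may also read other members of the cluster.

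Its upstream window, shown because this gene had the largest change, held none of the motifs searched.
Ugt1a6a (chr1:88134559-88134808, plus strand): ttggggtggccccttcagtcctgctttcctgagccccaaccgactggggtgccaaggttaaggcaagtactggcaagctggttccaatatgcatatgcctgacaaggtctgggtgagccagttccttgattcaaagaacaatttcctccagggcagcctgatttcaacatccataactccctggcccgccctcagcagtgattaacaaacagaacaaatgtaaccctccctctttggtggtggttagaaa
These motifs were the antioxidant core, the metal response element core (TGCGCNC or TGCACNC, 21.4% of all promoters), the E2F site TTTNNCGC (4.28%) and, added after the values were seen, the xenobiotic response element core TNGCGTG (4.1%). Among the windows of the 40 genes, the metal core occurred in 10 of 45 (22.2%), the E2F site in 1 (G6pdx, 2.22%) and the xenobiotic core in 2 (Ftl1 and Pgd, 4.44%).

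The glutathione S-transferases attach glutathione to electrophiles, and 2 of the 3 measured here rose. Gstm1, of the mu class, was at 7.37 and 7.04 in the WT clones and at 9.05 and 7.51 in E2F3LQ clones 2 and 4 in serum, against 9.65, 9.35, 9.53 and 9.34 without it. Its change was 1.73 ± 0.31 (adjusted p = 0.0102), and the groups did not overlap. The value of proliferating clone 2 lay 1.75 above the mean of the other 3. A dimmer probe of Gstm1 gave 0.22. Gsta4, of the alpha class, which takes up 4-hydroxynonenal from lipid peroxidation, was at 7.11, 6.94, 7.19 and 7.24 in proliferating and at 8.54, 8.45, 8.18 and 8.86 in starved cells. It rose by 1.39 ± 0.16 (adjusted p = 0.00244) in all 4 clones. The pi-class enzyme Gstp1 changed by 0.07 ± 0.18 and was not called. Probes of such families may bind close relatives.

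The carbonyl reductases use NADPH to reduce aldehydes and ketones. Cbr3 was at 8.30 and 8.51 in WT and 8.68 and 8.18 in E2F3LQ proliferating cells and reached 10.07, 9.86, 9.91 and 9.81 after starvation. This rise of 1.5 ± 0.14 (adjusted p = 0.00151) was seen in every clone, 1.76 and 1.35 in WT and 1.24 and 1.63 in E2F3LQ, and a second probe gave 1.52. Its neighbour Cbr1 rose less, from 7.67, 8.10, 8.04 and 7.96 to 8.6, 8.43, 8.37 and 8.52, a change of 0.54 ± 0.13 (adjusted p = 0.0271). Cbr2, the lung-type enzyme of the family, was at 9.57, 9.10 and 9.44 on 3 proliferating arrays, 11.76 on that of clone 2, and 9.54 to 10.65 in starved cells, and its change of -0.09 ± 0.49 was not called, nor was it without proliferating clone 2 (0.49) or clone 4 (-0.67). Ephx1, the microsomal epoxide hydrolase, went from 12.10, 11.87, 12.26 and 11.94 to 12.81, 12.69, 12.68 and 12.70, a rise of 0.67 ± 0.12 (adjusted p = 0.00993). The starved values of Cbr3, Cbr1 and Ephx1 lay above all proliferating values. Nqo1, the quinone reductase that is the classic NRF2 target, was not among the genes that rose (-0.31 ± 0.40, adjusted p = 0.617). Its change was 0.20, not called, without proliferating clone 2 and -0.82, called lower, without proliferating clone 4 (adjusted p = 0.00661).

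**Figure D2:**
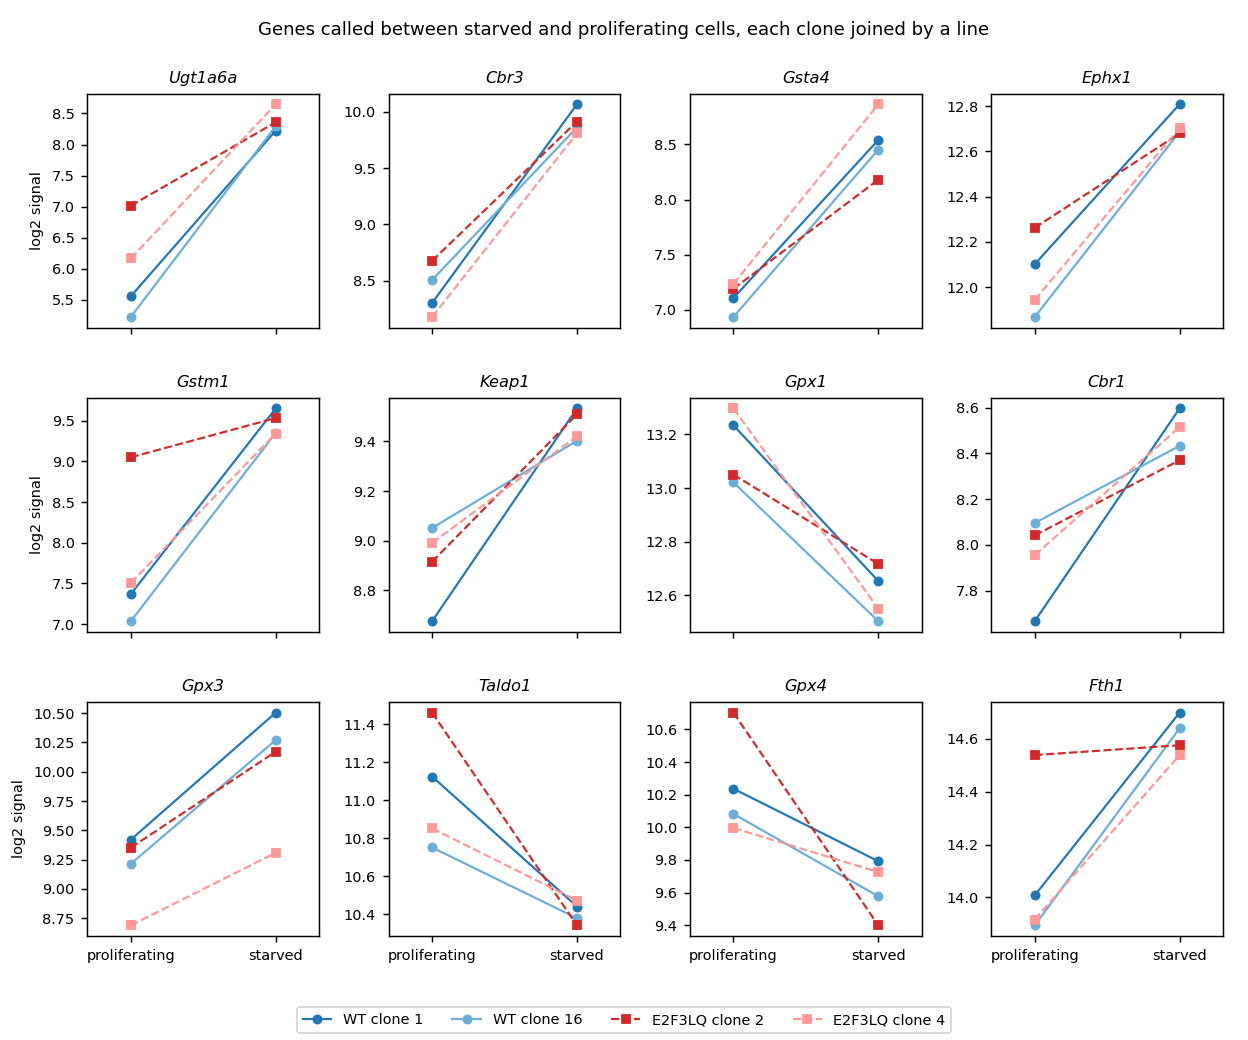
Log2 signal (vertical axis) of the 12 genes called between the serum conditions, in proliferating and starved cells, with a line for each of the 4 clones (WT blue circles, E2F3LQ red squares). Each line of the 9 genes that rose points up and each line of the 3 that fell points down. Proliferating E2F3LQ clone 2 starts highest for Ugt1a6a (7.02), Gstm1 (9.05), Fth1 (14.54), Cbr3, Ephx1, Gpx4 and Taldo1.

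Of the NRF2 regulators 1 was called, the inhibitor Keap1. It was at 8.67 and 9.05 in WT and 8.91 and 8.99 in E2F3LQ proliferating cells and at 9.53, 9.40, 9.51 and 9.42 in starved cells. It rose by 0.56 ± 0.12 (adjusted p = 0.019), with no overlap, and its 3 dimmer probes gave 0.28 to 0.60. Nfe2l2, which encodes NRF2 itself, was at 7.06 and 6.63 in WT and 8.01 and 6.44 in E2F3LQ proliferating cells and lay between 6.47 and 6.63 on all starved arrays. Its change of -0.50 ± 0.32 was not called (adjusted p = 0.294), and it rested on the proliferating E2F3LQ arrays, at -0.11 without clone 2 and at -0.89, called lower, without clone 4 (adjusted p = 0.00463). NRF2 is regulated mainly through its protein, which the arrays do not measure. Sqstm1, the autophagy receptor p62 that can capture KEAP1, differed by -0.46 ± 0.21 and was not called either, but without proliferating clone 4 it was called lower at -0.68 (adjusted p = 0.0143).

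The glutathione peroxidases went in opposite directions. Gpx3, the secreted enzyme, was at 9.42 and 9.21 in WT and 9.35 and 8.69 in E2F3LQ cells in serum and at 10.50, 10.27, 10.17 and 9.31 without it, a rise of 0.89 ± 0.23 (adjusted p = 0.0323). Starved clone 4 overlapped the proliferating arrays, although all 4 clones rose. Gpx1, the cytosolic enzyme, fell from 13.23, 13.02, 13.05 and 13.30 to 12.65, 12.50, 12.72 and 12.55 (-0.54 ± 0.12, adjusted p = 0.0194). Gpx4, which reduces lipid peroxides in membranes and holds back ferroptosis, went from 10.24, 10.08, 10.70 and 10.00 to 9.79, 9.58, 9.40 and 9.73 (-0.63 ± 0.18, adjusted p = 0.0444). For both of these every starved value lay below every proliferating value. With the clone as a block, Gpx4 was no longer called (adjusted p = 0.063). Of the genes that supply glutathione, Gclc and Gsr were not measured. Slc7a11 and Gclm, and the glutaredoxins beside them, showed no called change over all 8 arrays. Slc7a11, the cystine transporter, changed by -0.02 ± 0.39, Gclm, the modifier subunit of the ligase that makes the first step of glutathione, by 0.45 ± 0.20, and the glutaredoxins Glrx and Glrx3 by 0.40 ± 0.45 and 0.15 ± 0.12. These means joined clones that moved in opposite directions, since Slc7a11 stood 0.66 and 0.64 higher after starvation in the WT clones and 0.30 higher in E2F3LQ clone 4 but changed by -1.69 in clone 2. Without proliferating clone 2 its change was 0.47 and not called (adjusted p = 0.0678), and without proliferating clone 4 it was -0.51 and called lower (adjusted p = 0.0494). Gclm and Glrx were called higher without proliferating clone 2, at 0.66 and 0.98 (adjusted p = 0.0127 and 0.00185), and not without clone 4, at 0.23 and -0.18.

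Among genes of metal and heme handling, Fth1, the ferritin heavy chain that stores iron, rose from 14.01, 13.89, 14.54 and 13.92 to 14.70, 14.64, 14.57 and 14.54 (0.52 ± 0.15, adjusted p = 0.0463). The 2 groups met at 14.54, the value of proliferating clone 2 and of starved clone 4. Hmox1, heme oxygenase, which opens the heme ring, showed a change of 1.2 ± 0.43 that was not called (adjusted p = 0.0871), and Mt2, a metallothionein, one of 1.40 ± 0.51 (adjusted p = 0.0888). In 3 of the 4 clones both stood at least 1.6 higher after starvation, while in E2F3LQ clone 2 they stood 0.59 and 0.56 lower. Without the proliferating array of clone 2, both were called, at 1.76 ± 0.13 and 2.05 ± 0.18 (adjusted p = 0.000205 and 0.000364), and without that of clone 4 they were called at 0.64 and 0.75 (adjusted p = 0.0104 and 0.0185). Mt1 (0.18 ± 0.17) and Blvrb, biliverdin reductase B (0.31 ± 0.25), were not called.

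Mt2 was the gene with the most metal response cores, 3 in its window, and its sequence is given for that reason with those cores in capitals, the last of which lies on the minus strand.
Mt2 (chr8:94172368-94172617, plus strand): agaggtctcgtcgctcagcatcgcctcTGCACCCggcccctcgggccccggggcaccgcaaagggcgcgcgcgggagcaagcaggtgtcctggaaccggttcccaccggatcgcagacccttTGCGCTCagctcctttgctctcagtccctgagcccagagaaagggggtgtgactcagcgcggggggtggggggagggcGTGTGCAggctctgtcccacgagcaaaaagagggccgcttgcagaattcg
The antioxidant core of Mt2 printed above begins 79 bases before the start, and the metal cores begin 223, 128 and 50 bases before it.

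The pentose phosphate pathway supplies NADPH, and its transaldolase Taldo1 fell from 11.13, 10.75, 11.46 and 10.85 to 10.44, 10.38, 10.34 and 10.47 (-0.64 ± 0.17, adjusted p = 0.0327), with no overlap. The transketolase Tkt (0.21 ± 0.10) and Me1, malic enzyme (0.23 ± 0.18), were not called. In the thioredoxin system no gene was called. Txn1, thioredoxin, was at 6.20, 7.03, 6.86 and 6.71 in proliferating and at 5.24, 6.31, 6.08 and 6.29 in starved cells (-0.72 ± 0.27, adjusted p = 0.103), and with clones as blocks it passed the threshold (adjusted p = 0.0167). Prdx1, a peroxiredoxin, had starved values above all proliferating values, but its change of 0.32 ± 0.12 was not called (adjusted p = 0.102). Sod1 (0.03 ± 0.11), Sod3 (0.95 ± 0.84) and Cat (0.44 ± 0.26), which remove superoxide and hydrogen peroxide, were not called. Sod3 was called higher without proliferating clone 2, at 2.05 (adjusted p = 0.0012), and stood at -0.14, not called, without proliferating clone 4.

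**Figure D3:**
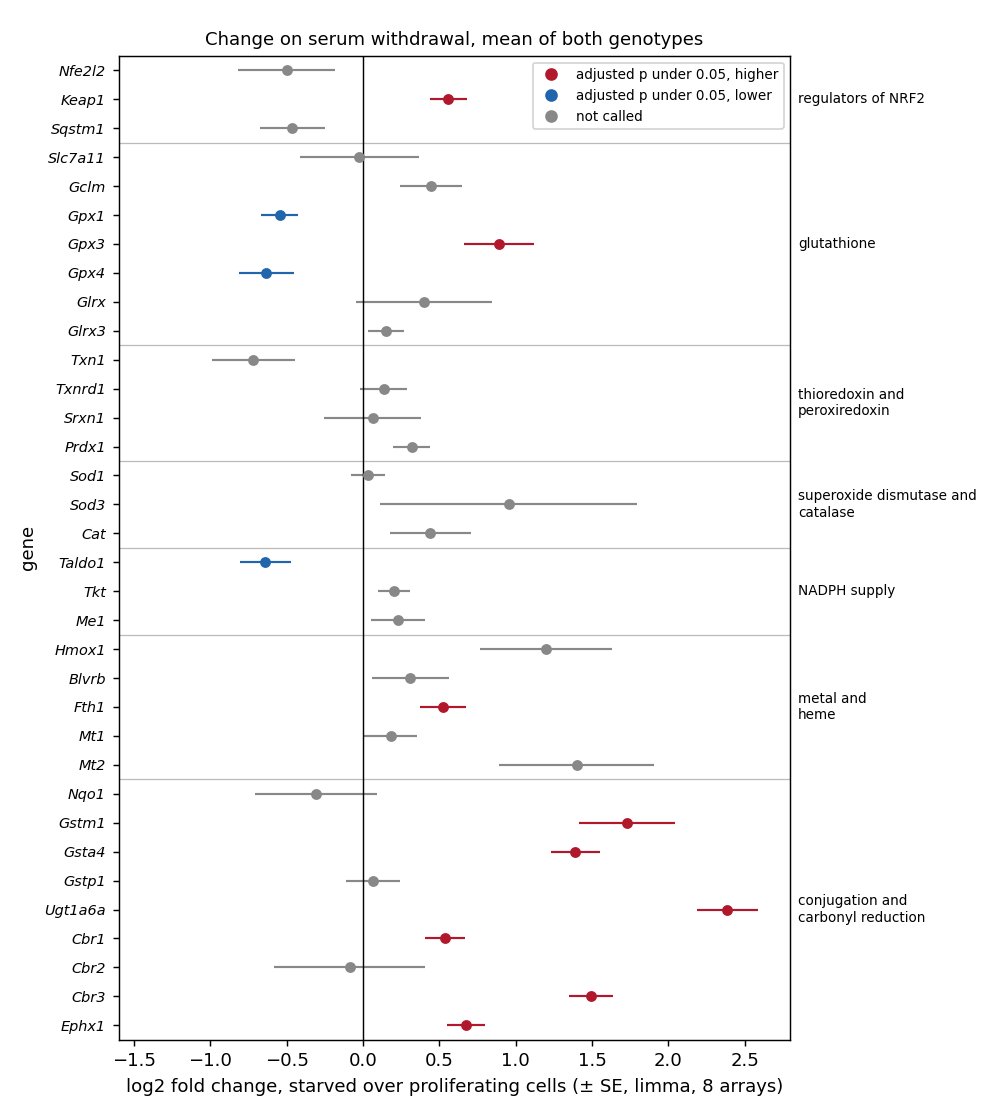
Log2 fold change of starved over proliferating cells (horizontal axis) with its SE from limma over 8 arrays, for the 34 genes by function (vertical axis). Red marks the 9 genes called higher, blue the 3 called lower and grey the 22 not called, and 6 of the 9 red genes lie in conjugation and carbonyl reduction.

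In all, 8 of the 34 genes had every starved value above every proliferating value and 3 had every one below, against 15% and 15.5% of all features. When each array was left out in turn, Ugt1a6a, Cbr3, Gsta4 and Gstm1 were called in all 8 fits and Ephx1 in 7, while the other 7 genes were called in 2 or 3. The counts moved with most of the arrays. Without proliferating WT clone 1 they were 5 higher and 0 lower, against 5.18% and 5.82% of all features, and without proliferating WT clone 16 they were 7 and 2 (7.94% and 8.54%). Without starved WT clone 1 they were 4 and 0 (4.5% and 5.01%), without starved WT clone 16 they were 5 and 0 (4.51% and 4.7%), without starved E2F3LQ clone 2 they were 5 and 0 (5.21% and 5.72%), and without starved E2F3LQ clone 4 they were 6 and 0 (5.74% and 5.89%). Calls thus became fewer over all features too in these 6 fits. Without proliferating E2F3LQ clone 4, 11 genes rose and 7 fell, against 15.5% and 14.5%, with Hmox1 and Mt2 added to those that rose and Nfe2l2, Sqstm1, Slc7a11 and Nqo1 to those that fell. Without proliferating E2F3LQ clone 2, 17 genes rose and 3 fell, against 13.6% and 15% of all features, and Hmox1, Mt2, Sod3, Glrx, Gclm, Blvrb, Srxn1 and Prdx1 were then among those that rose.

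Within each genotype the tests rested on 2 arrays against 2. In WT cells 834 features (8.17%) were called and 6 of the 34 genes rose, Ugt1a6a, Gstm1, Cbr3, Gsta4, Ephx1 and Glrx3. In E2F3LQ cells 470 features (4.6%) were called and 3 of the 34 rose, Ugt1a6a, Cbr3 and Gsta4. Ugt1a6a, for example, rose by 2.86 ± 0.28 in WT and 1.91 ± 0.28 in E2F3LQ cells (adjusted p = 0.00596 and 0.0195). Whether these changes differ between genotypes is given with the interaction below.

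The second comparison asked whether E2F3LQ MEFs express the defence differently while they proliferate. No gene was called, among the 34 or among all features (0%). The log2 difference, E2F3LQ minus WT, was above 0 for 31 of them and its median was 0.32, where the median of all features was -0.03. By unadjusted p-value under 0.05 in limma, 5 of the 34 were higher and 0 lower, against 1.13% and 1.7% of all features. In 10 genes both E2F3LQ arrays lay above both WT arrays and in 0 they lay below both, against 9.54% and 12.3% of all features. Several of these genes, Hmox1, Nqo1, Slc7a11, Srxn1, Sod3, Mt2, Cbr2 and Ugt1a6a among them, are on the list that the study drew from these same arrays, so the direction on the arrays is no independent evidence. By RT-PCR the study reported Slc7a11, Srxn1 and Ugt1a6a as significantly higher in proliferating E2F3LQ MEFs, without naming the clones used. Under median scaling 33 of the 34 lay above 0 with a median of 0.47, and the median of all features shifted to 0.12.

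The 2 E2F3LQ clones differed in this. Proliferating E2F3LQ clone 2 lay above the WT mean for 30 of the 34 genes, with a median of 0.66 and 14 genes more than 2-fold above. Proliferating E2F3LQ clone 4 lay above it for 20 of 34, with a median of 0.09 and no gene more than 2-fold away. Over all 10214 features the medians of the clones were -0.07 and 0.01, and 412 and 13 features lay more than 2-fold above the WT mean. Against the mean of the other 3 proliferating arrays, 13 of the 34 genes (38.2%) were more than 2-fold higher in clone 2 and 0 were more than 2-fold lower.

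**Figure D4:**
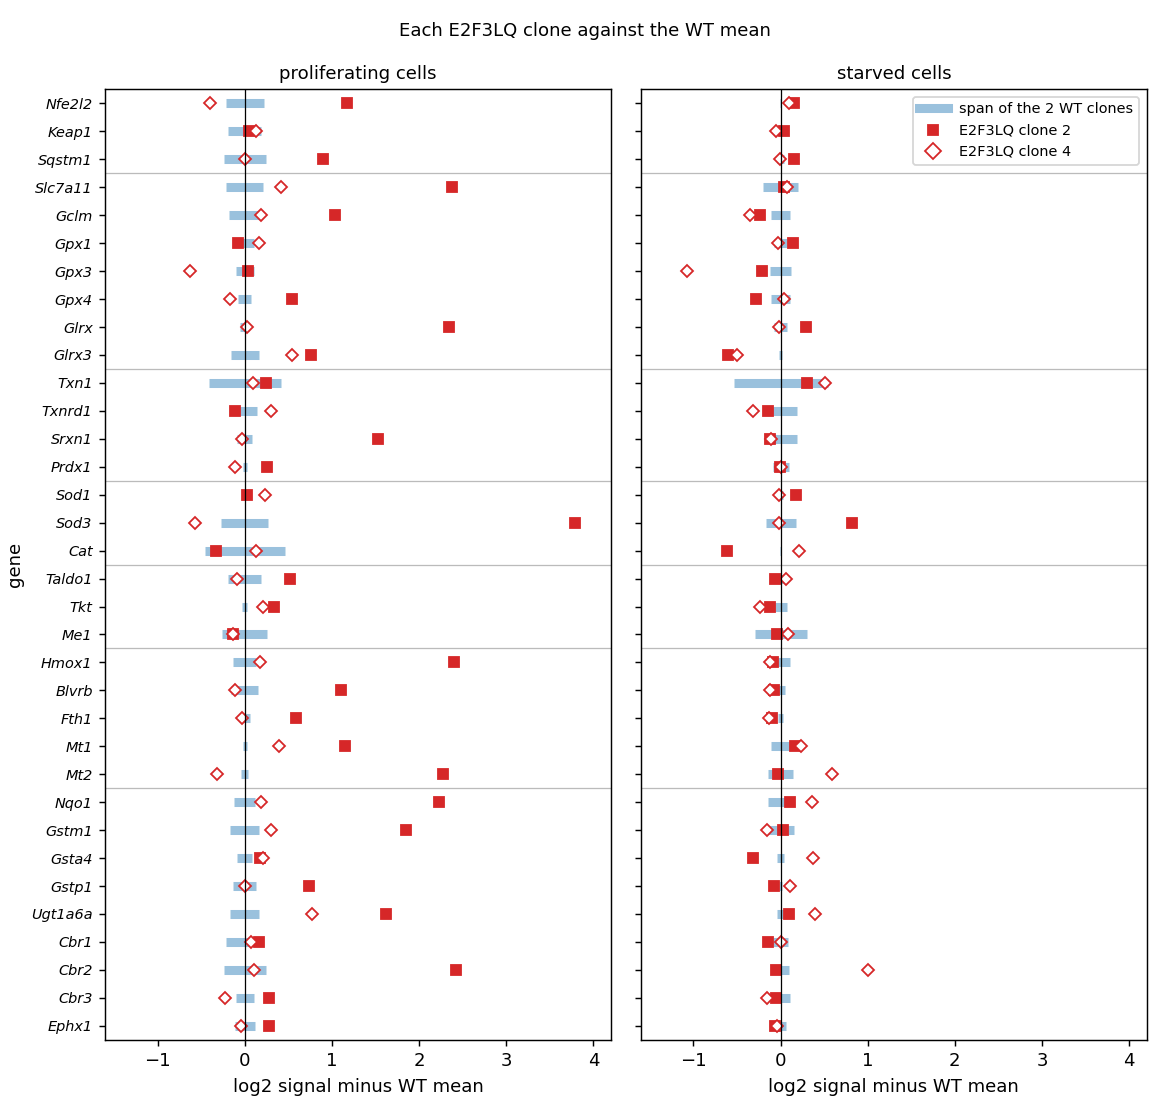
Log2 signal of E2F3LQ clone 2 (filled squares) and clone 4 (open diamonds) minus the WT mean (horizontal axis) for the 34 genes by function, in proliferating (left) and starved cells (right), with the blue bar spanning both WT clones. In proliferating cells clone 2 lies more than 1 above the WT mean for 14 genes and clone 4 for none, and in starved cells clone 2 does so for none and clone 4 only for Cbr2 (1.01).

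The genes that stood high on the clone 2 array came from several functions. Slc7a11 was at 5.46 and 5.89 in WT, 8.05 in clone 2 and 6.09 in clone 4, a genotype difference of 1.40 ± 0.55 (unadjusted p = 0.0384, adjusted p = 0.999). Srxn1, sulfiredoxin, which reactivates overoxidised peroxiredoxins, was at 8.79 and 8.62 in WT, 10.24 in clone 2 and 8.67 in clone 4. Its difference was 0.75 ± 0.45 (adjusted p = 0.999), and its other probes gave 0.86 and 0.61. Clone 4 thus lay within the WT range for Srxn1 and above both WT arrays for Slc7a11. The widest gap was that of Sod3, the extracellular superoxide dismutase, at 6.02 and 5.49 in WT, 9.55 in clone 2 and 5.18 in clone 4. Hmox1 (7.36 and 7.10 in WT, 9.64 and 7.40 in E2F3LQ), Nqo1 (6.53 and 6.29, 8.64 and 6.60), Glrx (9.95 and 9.84, 12.25 and 9.93), Mt2 (5.44 and 5.52, 7.76 and 5.17) and Cbr2 also stood highest in clone 2. Clone 4 lay slightly above both WT arrays for Hmox1 and Nqo1, within the WT range for Glrx and Cbr2, and below both WT arrays for Mt2.

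Ugt1a6a and the metallothionein Mt1 were among the 10 genes in which both E2F3LQ arrays lay above both WT arrays (9.54% of all features). Ugt1a6a showed the smallest p among the 34 genes, with a difference of 1.2 ± 0.28 (unadjusted p = 0.00367, adjusted p = 0.999), and clone 2 lay 1.62 and clone 4 0.78 above the WT mean. Its dimmer probes gave 0.47 and 0.30, and on both of them clone 4 lay below both WT arrays. Mt1 was at 13.27 and 13.22 in WT and at 14.39 and 13.64 in clones 2 and 4 (0.77 ± 0.25, unadjusted p = 0.0157, adjusted p = 0.999). Glrx3, a glutaredoxin that works in iron handling, was at 6.76 and 6.43 in WT and 7.36 and 7.14 in E2F3LQ cells (0.66 ± 0.17, unadjusted p = 0.006, adjusted p = 0.999), but its dimmer probe gave 0.00. Nfe2l2 was at 8.01 in clone 2 and, with 6.44, below both WT arrays in clone 4. Keap1 differed by 0.09 ± 0.17.

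With single arrays left out, the genotype comparison in proliferating cells gave different counts. Without clone 2, 0 of the 34 genes and 0 features were called, the median of the 34 was 0.09, and Srxn1 stood at -0.04. Without clone 4, so that clone 2 alone stood for E2F3LQ, 287 features (2.81%) were called higher and 118 (1.16%) lower, and 14 of the 34 genes were called higher and 0 lower. These were Nfe2l2, Slc7a11, Gclm, Glrx, Srxn1, Sod3, Hmox1, Blvrb, Mt1, Mt2, Nqo1, Gstm1, Ugt1a6a and Cbr2. That fit takes the lone array to vary like the other groups and compares 1 culture with WT. Whether clone 2 or clone 4 is typical of E2F3LQ cells cannot be told from 2 clones.

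The proliferating clone 2 array was also set beside the starved ones. It lay above all 4 starved arrays for 17 of the 34 genes, among them Slc7a11, Nqo1, Srxn1, Glrx, Sod3, Nfe2l2 and Cbr2, and below all 4 for 11, among them Ugt1a6a, Gstm1, Gsta4, Cbr3 and Ephx1, and within their range for 6. Over all features these positions held for 32.4%, 38.5% and 29.1%. Markers of other cells varied too. The summed signal of the 11 measured of 14 macrophage markers was 6876 and 3178 in WT and 5020 and 946 in E2F3LQ proliferating cells, in clones 2 and 4, and 1438 to 4342 in starved cells. Among them C1qb, Laptm5, Fcer1g and Lyz2 were detected on all 8 arrays, Lyz2 at 8.33 to 11.38, and Adgre1 on 7, while the general leukocyte gene Ptprc was detected on 0. On starvation 5 of the 11 markers were called lower, against 11.5% of all features. In proliferating cells 6 were lower in E2F3LQ by unadjusted p-value under 0.05 in limma, against 1.7% of all features, while none was called. The summed signal of the 9 measured fibroblast markers was 24464 on the proliferating clone 2 array and 24356 to 26529 on the other proliferating arrays. On the starved arrays it was 28737 to 34130. Proliferating clone 2 lay above the WT mean for 3 of these 9 markers and below it for 6. Erythroid markers were not measured above the detection filter (0 of 6), and 3 endothelial, 2 epithelial and 2 adipocyte markers were. Their part in the results was not tested.

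In starved cells the genotypes were closer. No gene was called (0% of all features), the median difference of the 34 genes was -0.0031, with 16 above and 18 below 0, and that of all features was 0.0024. Under median scaling 24 of the 34 lay above 0 with a median of 0.10, where all features had 0.09. By unadjusted p-value 0 of the 34 were higher and 1 lower, against 0.959% and 1.25% of all features. Both E2F3LQ arrays lay above both WT arrays in 3 genes and below in 6, against 17% and 16.9%. Over clones the medians were -0.05 for clone 2 and -0.01 for clone 4.

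Glrx3 had the smallest p among the starved comparisons, at 7.36 and 7.34 in WT and 6.75 and 6.85 in E2F3LQ clones 2 and 4 (-0.55 ± 0.17, unadjusted p = 0.0143, adjusted p = 1). Its dimmer probe gave 0.17. Gpx3 differed by -0.65 ± 0.33, with clone 4 at 9.31 and the other arrays at 10.17 to 10.50. Tkt was at 10.43 and 10.29 in WT and 10.24 and 10.12 in E2F3LQ cells (-0.18 ± 0.15). Txn1 differed by 0.41 ± 0.39, and this rested on starved WT clone 1, without which it was -0.13. Neither Slc7a11 (6.12 and 6.52 in WT, 6.36 and 6.39 in E2F3LQ, 0.06 ± 0.55), nor Srxn1 (9.01 and 9.40, 9.08 and 9.10, -0.11 ± 0.45), nor Ugt1a6a (0.25 ± 0.28) was called, and their adjusted p was 1.

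The last comparison tested whether the response to serum withdrawal differed between genotypes. In 31 of the 34 genes the change was more negative, or less positive, in E2F3LQ than in WT cells, with a median interaction of -0.36, where all features had 0.02. No gene was called (0% of all features). By unadjusted p-value, 0 of the 34 were higher and 2 lower, against 0.813% and 0.715%. The median change of the 34 genes on starvation was 0.57 and 0.64 in WT clones 1 and 16 and 0.43 in E2F3LQ clone 4, but -0.44 in clone 2, in which 10 genes were more than 2-fold lower after starvation, where 0 were in each of the other 3 clones. Of all 10214 features, 496 were more than 2-fold lower in clone 2, 494 and 421 in WT clones 1 and 16, and 363 in E2F3LQ clone 4.

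The smallest p was that of Glrx3, whose signal was 0.61 and 0.90 higher after starvation in WT clones 1 and 16 and 0.61 and 0.29 lower in E2F3LQ clones 2 and 4 (interaction -1.2 ± 0.24, unadjusted p = 0.00145, adjusted p = 1). Its dimmer probe did not show this, with E2F3LQ clones 2 and 4 at 6.30 and 6.83 while proliferating and 6.78 and 6.64 after starvation. For Ugt1a6a the changes were 2.66 and 3.07 against 1.34 and 2.48 (-0.95 ± 0.40, unadjusted p = 0.0485, adjusted p = 1). Gclm was at 7.35 and 6.98 in WT and 8.20 and 7.35 in E2F3LQ proliferating cells and at 8.18, 7.95, 7.84 and 7.71 in starved cells (-0.90 ± 0.40, unadjusted p = 0.0589, adjusted p = 1). Tkt, at 9.90 and 9.96 in WT and 10.26 and 10.14 in E2F3LQ proliferating cells, gave -0.45 ± 0.21 (unadjusted p = 0.0675, adjusted p = 1). Without proliferating clone 2, 0 of the 34 genes were called and 15 of 34 interactions were above 0. Without proliferating clone 4, 8 were called lower (Slc7a11, Glrx, Srxn1, Sod3, Hmox1, Mt2, Nqo1 and Gstm1) and 0 higher, against 1.18% and 0.235% of all features.

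A further 73 genes of the same pathways were listed, of which 64 were measured. On serum withdrawal 10 of the 64 rose and 8 fell, against 10.9% and 11.5% of all features, with a median of 0.04. Those with the smallest p among the risers were Gstk1, a mitochondrial and peroxisomal glutathione S-transferase (1.29 ± 0.12, adjusted p = 0.00133), Gsta3 (adjusted p = 0.00246), Osgin1, an oxidative stress-induced growth inhibitor (1.25 ± 0.19, adjusted p = 0.00531), and Gstt1 (1.33 ± 0.23, adjusted p = 0.00808). Of these 4, which were picked by p-value, 3 are glutathione S-transferases. The list holds others of that family, and the family as a whole was not tested. Gsta3 was detected on 1 of the 4 proliferating arrays, that of clone 2, and on all 4 starved ones, so its size is a bound, at least 2.98-fold higher in starved than in proliferating WT cells. Its measured signal was 4.29, 4.43, 5.32 and 4.46 while proliferating and 6.22, 6.42, 6.19 and 6.56 after starvation. Among those that fell were Msrb3 (adjusted p = 0.00531) and Msrb1 (-0.74 ± 0.19, adjusted p = 0.031), which repair oxidised methionine, Slc40a1, the iron exporter ferroportin (-1.67 ± 0.27, adjusted p = 0.00659), and Tfrc, the transferrin receptor (-1.37 ± 0.24, adjusted p = 0.00869). Msrb3 was not above background on either starved WT array, so that in WT cells it was at least 2.04-fold lower after starvation, and in E2F3LQ cells it went from 5.35 and 5.78 to 4.79 and 4.99.

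Between genotypes none of the 64 was called. In proliferating cells their median difference was 0.03 and 37 lay above 0, and the smallest p-values were those of Nox4, an NADPH oxidase (-0.56 ± 0.21), Tfrc (0.81 ± 0.34) and Gstt1 (0.73 ± 0.32), all with an adjusted p of 0.999. The clone 2 array lay above the WT mean for 31 of the 64, with 8 more than 2-fold above and 1 below. In starved cells the smallest p-values were those of Glrx2 (-0.49 ± 0.18), Pir, an iron-binding nuclear protein (-0.47 ± 0.18), and Maff, a small MAF protein detected on 1 of the 2 E2F3LQ arrays (-0.48 ± 0.20), with an adjusted p of 1. Whether the 34 and the 64 genes differ in their shift was not tested.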

How the data were processed

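RNA of 8 MEF cultures was hybridised to Illumina bead arrays, and the intensities were exported by the authors with GenomeStudio (version not given in the sources used here). The deposited probe intensities carried no visible background correction or normalization, and the deposited detection p-values compare each probe with negative control beads. A second deposited table of intensities, processed by the authors, appeared background-subtracted and quantile-normalized and was used as an alternative. The methods name a larger array than the platform annotation, which gave the gene names of 23978 of the 25697 probes. No slide or scan was given in the labels.

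Background was corrected by normexp with an offset of 16 and the arrays were quantile-normalized (neqc). Probes with a detection p-value under 0.05 on at least 2 arrays were kept (13666), and the brightest was taken for each gene, which left 10214 features. A model of 4 groups was fitted with limma 3.58.1 (R 4.3.3, statmod 1.5.0), with 4 residual and 3.27 prior degrees of freedom and Benjamini-Hochberg adjustment over all features. The serum effect was the mean over genotypes. Where no array of a group detected a probe, the fold is a bound, taken against the higher of the lowest detected signal on each array and the probe's own. An exact permutation test of 2 arrays against 2 cannot go below p = 0.333. The number of arrays limits the precision. Figures were drawn with Python 3.11.15 and matplotlib 3.10.9. The serum contrast was tried on simulated data with independent noise between arrays. The other contrasts and the fits with arrays left out were not tried in this way.

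The genes and lists (7 functions of the 40 genes, 73 other pathway genes, and fibroblast, macrophage, endothelial, epithelial, adipocyte and erythroid markers) were chosen with earlier results of these data known. Array values are given for up to 12 genes called on starvation, the 4 with the smallest p in each genotype comparison and in the interaction, Slc7a11, Srxn1 and Ugt1a6a, which the study also measured by RT-PCR, and Nfe2l2 and Keap1. Other array values were added after they were seen. Both arrays of a clone are taken to come from the same embryo, so clones pair the arrays. Deviations of the same clone correlated at 0.0906 in WT and 0.291 in E2F3LQ cells over all features. Alternatives changed the background correction, scaling, source, detection filter, probe choice, variance model, arrays fitted, clone block and test, and left out arrays or clones. Promoter sequences came from RefSeq (GRCm38.p6).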

Additional observations from a re-analysis of the deposited data

Results flagged for a closer look

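In 2 of the 34 genes both WT clones moved one way on serum withdrawal and both E2F3LQ clones the other. The signal of Glrx3 was 0.61 and 0.90 higher in WT clones 1 and 16 and changed by -0.61 and -0.29 in E2F3LQ clones 2 and 4, an interaction of -1.2. The signal of Tkt was 0.53 and 0.33 higher in the WT clones and changed by -0.02 and -0.01 in the E2F3LQ clones, an interaction of -0.446. Neither interaction was called by limma (adjusted p = 1 for both), and the same pattern of signs occurred in 386 of all features (3.78%). Dimmer probes of Glrx3 and Tkt gave serum changes, averaged over genotypes, of 0.06 and -0.30, where the brightest gave 0.15 and 0.21. Neither dimmer probe showed the pattern of signs. That of Glrx3 went from 6.56 and 6.57 to 6.50 and 6.58 in WT clones 1 and 16. In E2F3LQ clones 2 and 4 it went from 6.30 and 6.83 to 6.78 and 6.64. The dimmer Tkt probe, detected on 5 arrays, was lower after starvation in every clone.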

How the results depend on the processing

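Across the alternatives, 617 values kept their direction and side of the threshold, or moved less than the limit set for them. Of the others 79 were weaker, 8 stronger, 37 moved and 4 reversed. Median scaling gave 19 genes with both E2F3LQ arrays above both WT arrays in proliferating cells and 8 in starved cells, where 22.7% and 20.2% of all features then did so. Without a detection filter 1 gene was called lower in starved cells, against 5.9% of features. With arrays or whole clones left out, the count called higher in starved cells ranged from 0 to 17 and that called lower from 0 to 7. The shares of all features called also varied between these fits. The lowest counts came without both arrays of WT clone 1, a fit that left 1 WT array in each serum condition. Calls nearly vanished over all features too in that fit, so its counts do not single out the listed genes. The count called between genotypes ranged from 0 to 14 in proliferating cells and stayed at 0 in starved cells, and that in the interaction ranged from 0 to 8. Genes with E2F3LQ above WT ranged from 10 to 25 in proliferating and from 3 to 14 in starved cells, and the share of all features from 9.54% to 32.2% and from 17% to 35.4%. Srxn1 in proliferating cells ranged from -0.0359 without E2F3LQ clone 2 to 1.53 without clone 4, and Txn1 in starved cells from -0.13 without WT clone 1 to 0.95 without clone 16. The cause was not tested. A lone array was assumed to vary like the other groups. With the clone as a replicate block, 9 genes were higher and 3 lower, against 11% and 10.9% of all features, and the interaction had 0. Gpx4 lost its call and Txn1 gained one, and no other serum call changed. The methods' t-test at its threshold gave 10 higher and 3 lower on starvation (1896 and 1986 of all features). Between genotypes it gave 0 and 0 in proliferating (94 and 121) and 1 and 1 in starved cells (258 and 297). After Benjamini-Hochberg these comparisons had 10, 0 and 0 genes called, against 2382, 0 and 2 of all features. The 10 on starvation were 8 higher and 2 lower, against 11.2% and 12.1% of all features. The arrays limit what can be seen at low signal, as for Txnrd1.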
